A study of Mus musculus with 2 samples.

Results

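NRF1 peaks that lay in the exons of protein-coding genes, away from promoters, numbered 237 of the 10979 NRF1 peaks on chromosomes 1 to 19 of the mm9 set. A peak belonged here when its summit was more than 1000 bp from the transcription start site (TSS) of every protein-coding transcript and fell in a coding exon or a 3' UTR. Coding exons held 167 of them and 3' UTRs 70, and together they lay in 222 host genes. NRF1 binding had been mapped by chromatin immunoprecipitation and sequencing (ChIP-seq) in CH12.LX, an immortalized mouse B-cell lymphoma line labelled female, of strain B10.H-2aH-4bp/Wts. Both libraries were biological replicates of this line without any treatment in the labels, and they formed 1 group, so no conditions could be compared. They came from separate biosamples of the same line, so the spread between them is that of a single cell line. Expression was not measured, and no control library was analysed here.

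NRF1 (nuclear respiratory factor 1) binds DNA as a dimer at a GC-rich, nearly palindromic site with CpG dinucleotides in each arm. It is best known for sites in CpG-rich promoters, among them those of nuclear genes for mitochondrial proteins. It is a different protein from NFE2L1, which is also called NRF1. Exons differ from promoters in that their sequence is also read as codons, or, in a 3' UTR, as part of the mature transcript.

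Sites under exonic summits are shown first because most of the strongest summits had a match to the NRF1 consensus with at most 1 mismatch. Each line gives the host gene, the place of the 10-base site on mm9 (1-based), its strand and the 30 bases around it, 5' to 3' in the orientation of the consensus. Capitals mark the bases of the site that match the consensus, and a lower-case base inside the site is a mismatch. The first lines hold exact sites, chosen for the match, and the first 5 are under strong peaks. E030010N08Rik has a signal of 651, the median of the 13 members with an exact site within 50 bp of the summit. Rtp2 is among the weakest members at 37.7.
Dapk3, coding exon, chr10:80655500-80655509, plus: ccgaggctctGCGCACGCGCgcgcaggagg
2410066E13Rik, 3' UTR, chr6:54649598-54649607, plus: atctagtcatGCGCATGCGCatgagcaagc
Gdf15, coding exon, chr8:73153777-73153786, plus: tctcttgggtGCGCATGCGCgcttcggcgc
Cacna1a, coding exon, chr8:87163353-87163362, plus: gcgctggcctGCGCATGCGCctgagggccc
Lgals7, coding exon, chr7:29651152-29651161, minus: cctccaccaaGCGCACGCGCgcgggcggca
E030010N08Rik, coding exon, chr1:95120769-95120778, plus: tcgcggcactGCGCACGCGCctcatacagg
Rtp2, coding exon, chr16:23927696-23927705, plus: gcttgaacacGCGCATGCGCactgagccaa

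The next set holds strong peaks whose site departed from the consensus at 1 base.
Srcin1, coding exon, chr11:97393231-97393240, plus: cctccgacacGCGCATGCtCagctccgcct
Dapk3, coding exon, second summit, chr10:80655227-80655236, plus: tgcgcgccgcGCGCcTGCGCgagtacagcc
Hcrt, coding exon, chr11:100623196-100623205, plus: ctctagctctGCGCcTGCGCggcggcccat
Clec11a, coding exon, chr7:51560276-51560285, plus: gccttgcaccGCGCcTGCGCcgccgcctgg
Spnb4, coding exon, chr7:28146618-28146627, plus: cgtcgagctcGCGCtTGCGCagcaggaagc
Dand5, 3' UTR, chr8:87339692-87339701, minus: cacagccctgaCGCACGCGCagcacagctc
N4bp3, coding exon, chr11:51457882-51457891, plus: gcagctccttGCGCAgGCGCcgctgctcct
Apold1, coding exon, chr6:134933704-134933713, plus: gccaagtgctGCGCcTGCGCgaagtggccc
S1pr3, coding exon, chr13:51514163-51514172, plus: catggcaaccaCGCATGCGCagggccacca

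Signal is the authors' value for each peak. Its scale was not stated with the files, and signals were compared only within 1 list. The exonic peaks had a median signal of 85.5 (95% interval of the median 73.8 to 119), with quartiles of 44.8 and 407 and a range of 34.6 to 8278. Intronic peaks away from promoters, 1472 in number, had a median of 64.5 with quartiles of 43.5 and 168. The upper quartile of the exonic peaks was thus well above that of intronic peaks, while the lower quartiles were alike. Intergenic peaks had a median of 68.3 and promoter peaks of 144. Coding exon peaks (median 90.1) and 3' UTR peaks (median 79.8) covered the same range, and 45.5% and 45.7% of them were above the median of all peaks (difference −0.205 points, 95% Newcombe interval −13.9 to 13.3). Over both kinds, 45.6% were above that median against 36.6% of intronic peaks (difference 8.95 points, 2.25 to 15.8). In the strongest decile of all peaks lay 14 exonic peaks, 5.91%, against 1.63% of intronic peaks (difference 4.28 points, 1.79 to 8.08). These intervals cover counting error only, since peaks of 1 cell line are not independent replicates.

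**Figure D1:**
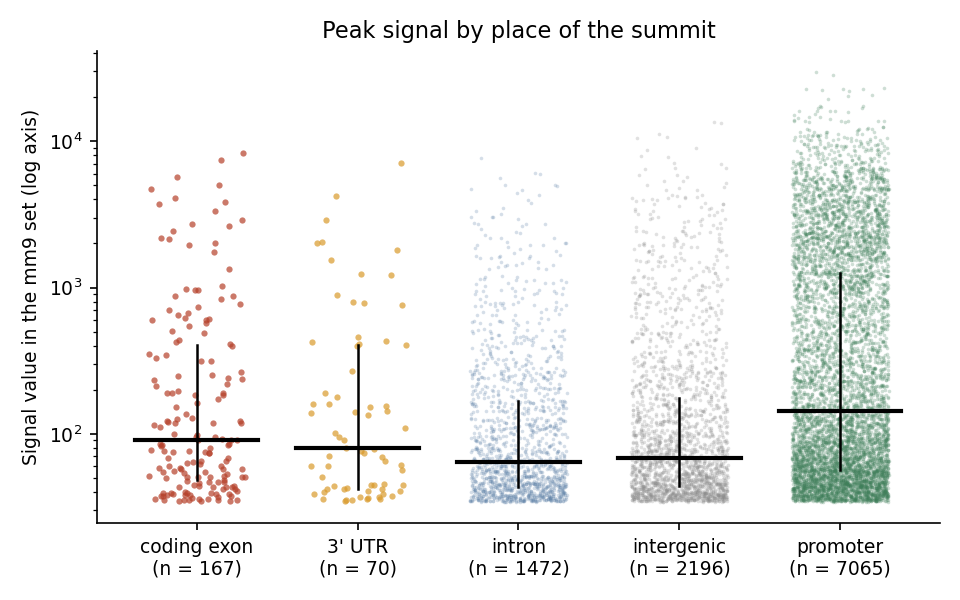
Signal value of each mm9 peak (log axis) by the place of its summit; points are peaks, the horizontal bar is the median and the vertical line spans the quartiles. Coding exon and 3' UTR peaks have medians of 90.1 and 79.8, above the 64.5 of intronic peaks and below the 144 of promoter peaks, and their strongest members reach 8278 and 7131.

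The strongest exonic peak lay in Srcin1, which encodes an adaptor protein that inhibits SRC kinase signalling. Its mm9 signal was 8278, rank 151 of all peaks, with the summit in exon 14 of 22 and 31584 bp from the nearest protein-coding TSS. On mm10 the peak at the same place in the gene had a signal of 309 in replicate 1 and 327 in replicate 2 (318 ± 12.9, SD, n = 2). Replicate values here and below are those of the mm10 peak whose distance from an end of the same gene was within 100 bp of that on mm9, and they are on another scale than the mm9 signal. Srcin1 also had a peak at a promoter of its own, 1 of the few strong members that did.

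Dapk3, a death-associated serine/threonine kinase, held 2 summits 256 bp apart in its last exon. Both belonged to 1 deposited interval of 790 bp, so they are not separate regions, and the 237 summits came from 235 intervals. The signals were 7480 at the summit with the exact site and 4721 at the one with 1 mismatch. The weaker summit had an mm10 match at 248 and 234 in replicates 1 and 2. The stronger one had no peak within 100 bp of the matching place in either replicate. The list called on mm10 thus placed its summit in Dapk3 near the weaker of the mm9 summits.

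The uncharacterised gene 2410066E13Rik carried the strongest 3' UTR peak, with a signal of 7131. Its replicate values were 321 and 335, and its summit was 488 bp past the stop codon and 17838 bp from any annotated start. Gdf15, a secreted stress-responsive cytokine of the TGF-beta family, had a signal of 5723 in the last of its 2 exons and replicate values of 278 and 280. Cacna1a, the pore subunit of the P/Q-type calcium channel, had 5029 in the last of 48 exons, with 316 and 318 in the replicates. In all 3 genes the replicates differed by less than 1.1-fold, and none had a promoter peak of its own. An annotated non-coding transcript of the processed type started 480 bp from the Cacna1a summit.

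Further strong members were in 3 genes of different roles. Hcrt, the precursor of the orexin peptides, had 4104 with 329 and 324. Its summit was 1031 bp from the nearest protein-coding TSS, the closest of all members to the 1000 bp limit. Clec11a, a secreted lectin that acts as a growth factor, had 3816 with 295 and 274. Spnb4, a beta spectrin of the axonal membrane skeleton, had 3735 with 307 and 331 in exon 15 of 18. These genes were named by signal alone and were not tested as a group.

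The remaining members among the strongest had smaller signals but like agreement between replicates. Fbxl22, an F-box protein, had 3319 with 259 and 249, and was the only 1 of the strongest 14 with more than 1 mismatch in its best site. Dand5, a secreted antagonist of Nodal signalling, had 2909 in its 3' UTR with 297 and 279. Lgals7, a galectin of epithelial cells, had 2905 with 304 and 301. N4bp3, a protein that binds the ubiquitin ligase NEDD4, had 2732 with 282 and 290, and Apold1, an apolipoprotein L-like protein, had 2648 with 280 and 264. In none of these genes did the replicates differ by more than 1.1-fold.

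Among 3' UTR peaks weaker than those of 2410066E13Rik and Dand5, 1700066B19Rik had 2047, with 257 and 254 in the replicates. Hist2h2bb, a histone H2B gene, had 2018 with 258 and 256. Xpo7, a nuclear transport receptor, had 1808 and no mm10 peak at the matching place. Its summit lay 6723 bp past the stop codon in a last exon of 11849 bp, where the ends of the gene may be drawn differently in the annotations of the 2 builds, which was not tested.

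At the middle of the distribution was Gfap, the intermediate filament protein of astrocytes, with a signal of 85.5. The replicates had 38.9 and 21.3 there, a wider relative spread than at the strong members. The weakest peak, in Rinl, had 34.6 with 15.9 and 11.9 in the replicates and no match in the optimal mm10 set. That set was selected by the authors from both replicates. A second peak in Rinl, 695 bp away, had 488 with 125 and 143. Host genes with 2 members numbered 13, and Cx3cl1, a membrane-bound chemokine, had 3.

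Over all members, 200 of the 235 whose host gene could be matched to the mm10 gene table (85.1%, 95% Wilson interval 80.0 to 89.1) had an optimal mm10 peak at the same place. The share over all mm9 peaks with a matched host gene was 87.3%, and over intronic peaks 82.3% (difference 2.77 points, −2.68 to 7.25). A peak among the 17256 strongest of each replicate was found at 207 members in replicate 1 and 194 in replicate 2, and in both at 187 (79.6%, 74.0 to 84.2). That share in both was 81.6% over all mm9 peaks with a matched host gene. For intronic peaks it was 73.4% (exonic minus intronic 6.21 points, 0.175 to 11.4). Within the members it was 91.7% in the strongest signal quartile and 61.0% in the weakest (difference 30.6 points, 15.7 to 44.2). The exonic and intronic shares in the optimal set thus did not differ beyond counting error, and weak exonic peaks had a match less often than strong ones. The mm9 and mm10 lists came from the same 2 libraries, so a match is not an independent finding of the peak.

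Taking any peak of the relaxed lists, 204 members had a value in both replicates, and replicate 1 was the higher at 142 and replicate 2 at 62. Each relaxed list holds 300000 peaks, so a peak can lie within 100 bp by coincidence, and how often was not computed. The median log2 ratio of replicate 2 to replicate 1 was −0.18, and 148 of the 204 agreed within 1.5-fold. As a description across these 204 peaks, which share both libraries, Pearson's r of the log2 signals was 0.922 and Spearman's rho 0.902. The widest gap was at Prdm12, a transcriptional regulator, with 2.78 and 53.3. A stronger replicate 1 peak of 64.6 lay within the same 100 bp, so the gap there came from which of the neighbouring peaks was the closest. Prdm12 and Il16 were the only 2 members where the closest peak was not the strongest.

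**Figure D2:**
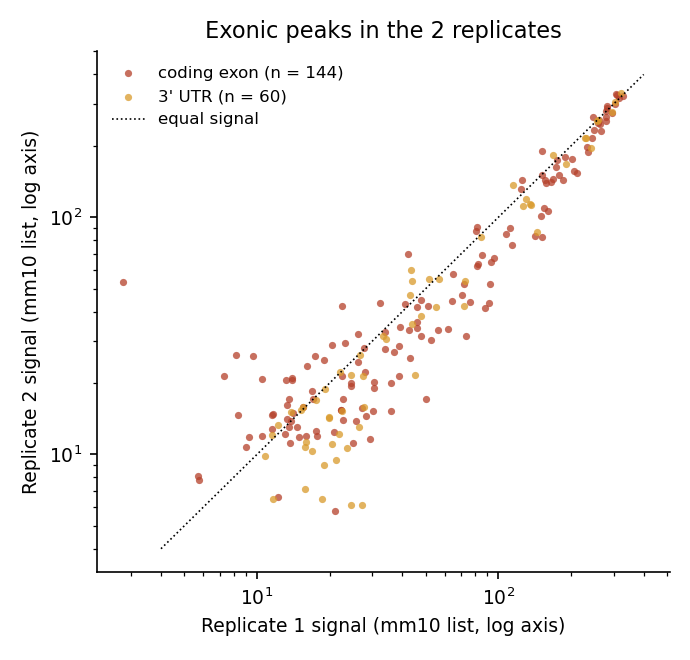
Signal of the mm10 peak at the same place in the gene in replicate 1 and replicate 2 (both axes log), for the 204 exonic members with a peak in both relaxed lists; the dotted line marks equal signal. Points near the top lie along the line, and the spread is wider at lower signals, with 142 points on the replicate 1 side.

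The exact NRF1 consensus, the 10 bases printed above with C or T in the variable place, was within 50 bp of the summit at 13 of the 237 exonic peaks (5.49%, 3.23 to 9.16). It was there at 8.73% of all mm9 peaks, 10.8% of promoter peaks, 4.62% of intronic peaks and 5.01% of intergenic peaks. The exonic and intronic shares differed by 0.866 points (−1.68 to 4.66), which is within counting error. The 13 had signals from 37.7 to 7480 with a median of 651. Beside Dapk3, 2410066E13Rik, Gdf15, Cacna1a and Lgals7, already described, they included Synpo, an actin-binding protein of podocytes and dendritic spines, at 1951 with 264 and 247 in the replicates. E030010N08Rik had 651 with 178 and 151. Actn1, an actin cross-linking protein, had 179 in its 3' UTR, with 60.7 in replicate 1 and no match in replicate 2. Celf4, an RNA-binding protein of neurons, had 140 with 44.0 and 53.8. B3galt6, a galactosyltransferase of the proteoglycan linker, had 135 with 51.6 and 54.8, and 2 adjoining sites. Rasa4, a GTPase-activating protein for Ras, had 91.8 with 33.9 and 32.7. Cog8, a subunit of a Golgi tethering complex, had 76.3, with 59.8 in replicate 1 and no match in replicate 2. The weakest of the 13 was Rtp2 at 37.7, a protein that helps chemosensory receptors reach the cell surface, with 13.9 and 20.5 in the replicates. Its site, printed above, is as perfect as those of Gdf15 and Cacna1a, whose signals were 5723 and 5029.

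With up to 1 mismatch the consensus was within 50 bp of 78 exonic summits (32.9%, 27.2 to 39.1), against 33.7% of all mm9 peaks. The share was 31.7% in coding exons and 35.7% in 3' UTRs (difference −3.98 points, −17.4 to 8.63). It was 26.6% at intronic peaks (exonic minus intronic 6.35 points, 0.226 to 12.9) and 28.7% at intergenic peaks (4.18 points, −1.81 to 10.7). Windows centred 500 bp to either side of the exonic summits held no such site in 474, which allows a share of up to 0.804% (Wilson). Centres of all annotated coding exon pieces away from promoters, overlapping variants of an exon included, held one in 0.328% of 206171 windows of the same length. The sites were thus concentrated at the summits, a median of 12.5 bp away, with 63 of the 78 within 20 bp. More than 1 such site was found at 9 of the 237.

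**Figure D3:**
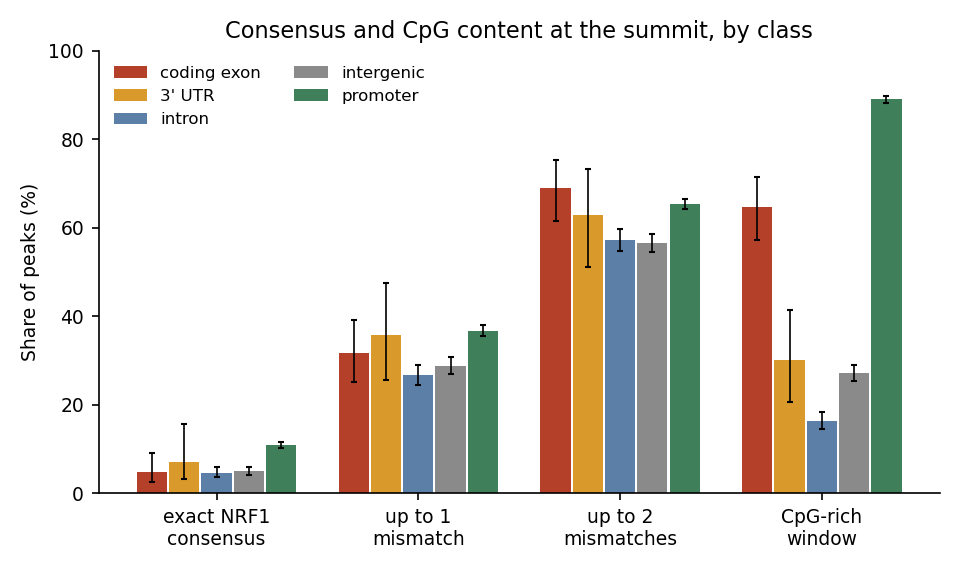
Share of peaks (%) with the NRF1 consensus within 50 bp of the summit at 3 levels of match, and with a CpG-rich window, by class; error bars are 95% Wilson intervals. For the consensus the coding exon and 3' UTR bars overlap in their intervals, while the CpG-rich share is 64.7% in coding exons, 16.3% in introns and 89.0% at promoters.

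Signal and the match to the consensus went together within the exonic peaks. Members with the exact site had a median signal of 651, those with 1 mismatch 396 (65 peaks), those with 2 mismatches 90.1 (81 peaks) and those with more 47.6 (78 peaks). By signal quartile from strongest to weakest, 65.0%, 35.6%, 15.3% and 15.3% had a site with up to 1 mismatch. The strongest and weakest quartile differed by 49.7 points (32.8 to 62.7). In the strongest decile of all peaks, 13 of 14 exonic peaks and 21 of 24 intronic peaks had such a site. In the weakest decile it was 5 of 35 and 20 of 237. Peaks with more than 2 mismatches were mostly at the commonest width of the mm9 set, 376 bp: 60 of 78 had exactly that width, against 1 of the 13 with the exact consensus. The share at that width was 44.3% over all members and 42.9% over all mm9 peaks. Since the 78 were also the weakest group, width was not told apart from signal. Slc12a3, the sodium-chloride cotransporter of the kidney, was the strongest member with more than 2 mismatches, with a signal of 972 and 234 and 188 in the replicates; it was picked out after its values were seen.

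**Figure D4:**
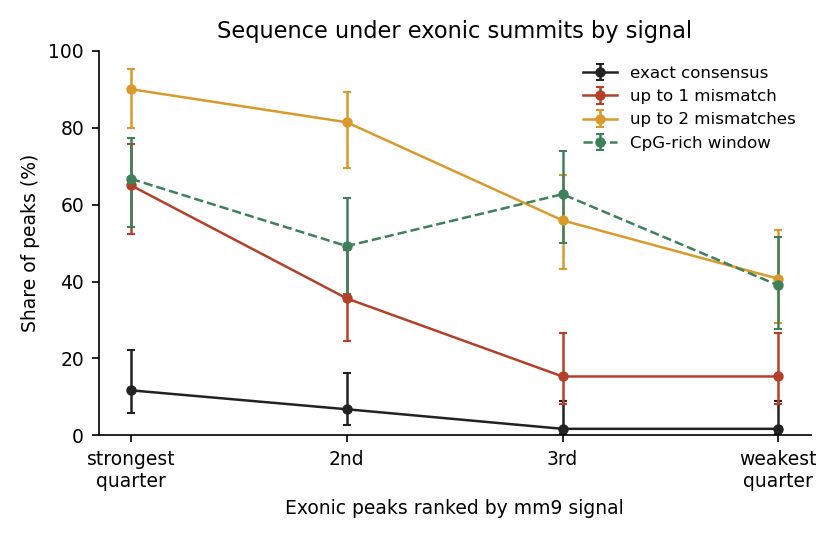
Share of the 237 exonic peaks (%) with the consensus at 3 levels of match and with a CpG-rich window, by quartile of mm9 signal; error bars are 95% Wilson intervals. The share with up to 1 mismatch falls from 65.0% to 15.3%, while the CpG-rich share goes 66.7%, 49.2%, 62.7% and 39.0%.

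Summits in coding exons were more often CpG-rich than those in 3' UTRs, introns or intergenic sequence. A 200 bp window around the summit was called CpG-rich when its GC content was above 0.5 and its CpG observed/expected ratio above 0.6. By this measure 129 exonic windows were CpG-rich (54.4%, 48.1 to 60.6), against 66.1% of all mm9 peaks, 16.3% of intronic peaks (difference 38.1 points, 31.5 to 44.6) and 27.1% of intergenic peaks. The 9 distal peaks in other exon sequence of protein-coding genes, which are not members, had CpG-rich windows in 7 cases. The share was 64.7% in coding exons, and in 3' UTRs 21 of 70 were CpG-rich (difference 34.7 points, 20.9 to 46.4). Exon centres at large were less often CpG-rich: centres of all distal coding exon pieces in 5.13% of cases, and centres of all distal 3' UTR pieces in 1.28%. Each piece gave a single window whatever its length, and a window can reach past a short exon. The centres were thus not matched to the exons that held summits. The median GC content was 63.7% at coding exon summits, 56.5% at 3' UTR summits and 53.2% at intronic summits, against 49.8% over all distal coding exon centres.

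Sites with up to 1 mismatch were more frequent in CpG-rich members, at 41.9%, than in the others, at 22.2% (difference 19.6 points, 7.70 to 30.6). Of the 13 exact sites 11 lay in CpG-rich windows. The 200 bp window contains the 50 bp on either side of the summit in which sites were sought. A site thus adds its own CpG dinucleotides to the measure. The difference and the count of exact sites are therefore in part built in, and to what extent was not tested. The CpG classes used next depend on the site in the same way. The comparison with intronic peaks was repeated within each CpG class. Among CpG-rich peaks the shares were 41.9% exonic and 51.7% intronic (difference −9.81 points, −20.1 to 0.876), and among the others 22.2% and 21.7% (interval of the difference −6.67 to 9.54 points). The exonic excess of 6.35 points given above was thus not seen beyond counting error within either class. The classes do not equalise CpG content: CpG-rich exonic windows had a median GC content of 66.2% against 59.5% for CpG-rich intronic windows, and the others 57.0% against 52.2%.

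Seen from the genome rather than from the peaks, distal exons held 131 exact consensus sites, and 17 of these were under an mm9 peak (95% Wilson interval 8.26% to 19.8%). The share was 10 of 77 in coding exons and 7 of 54 in 3' UTRs. Over 2000 bp from a TSS it was 8 of 65 in coding exons (12.3%) and 4 of 51 in 3' UTRs (7.84%, 3.09 to 18.5). In introns 76 of 1864 sites were under a peak (4.08%; exonic minus intronic 8.90 points, 4.08 to 15.8), in intergenic sequence 119 of 2293 (5.19%), and near promoters 907 of 1165 (77.9%). Of the coding exon sites, 10 of 52 in CpG-rich windows were under a peak and 0 of 25 in other windows, which allows up to 13.3%. In 3' UTRs the counts were 3 of 22 and 4 of 32. Among CpG-rich sites alone, coding exons remained above introns, at 19.2% and 6.63% (difference 12.6 points, 3.79 to 25.4). CpG-rich intergenic sites were under a peak at 11.9% (9.53 to 14.7), which overlaps the interval of the coding exon share (10.8 to 31.9). Besides the sites within 50 bp of a summit, the 17 included 1 under the Ccdc47 peak, 174 bp from its summit, and 2 under the Nrg2 peak.

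**Figure D5:**
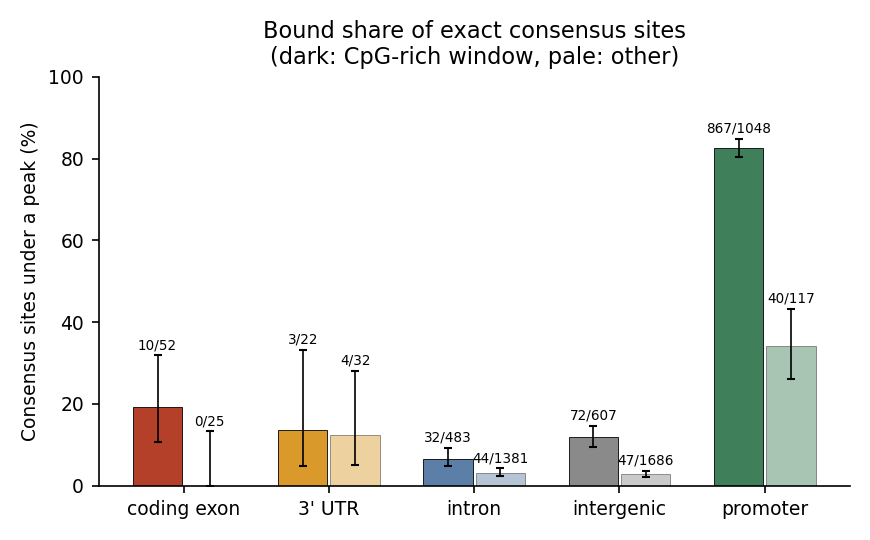
Share of exact consensus sites that lie under an mm9 peak (%), by place, for sites in CpG-rich windows (dark) and in other windows (pale); error bars are 95% Wilson intervals and the numbers give bound sites over all sites. Coding exons have 10 of 52 and 0 of 25, introns 32 of 483 and 44 of 1381, intergenic sequence 72 of 607 and 47 of 1686, and promoters 867 of 1048 and 40 of 117.

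Per length of sequence, distal coding exons held 5.95 peaks per Mb over 28.0 Mb and 3' UTRs 2.91 per Mb over 24.1 Mb. Introns held 1.75 per Mb, intergenic sequence 1.52 and promoters 125. Exact consensus sites were at 2.75 per Mb in coding exons, 2.24 in 3' UTRs and 2.21 in introns. Peak density thus differed more between coding exons and introns than the density of sites did.

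By place in the transcript, the last exon held 131, internal exons 97, the first exon 3, and 6 were in transcripts of a single exon. For each peak a single transcript was used: of those with coding or 3' UTR sequence at the summit, the one whose TSS was nearest. Exon numbers, exon lengths and distances to splice sites and stop codons, here and elsewhere, refer to that transcript. Another transcript of the gene may place the peak in a different exon. The second exon held 51. First exons are mostly kept out by the distance to the TSS, and a 3' UTR is in most genes part of the last exon. The median distance to the nearest protein-coding TSS was 6840 bp (quartiles 2677 and 14705), with 47 peaks under 2000 bp and 86 over 10 kb. Nearest to the 1000 bp limit on the inside were Hcrt at 1031 bp, Camk2n1 at 1033 bp and Ccdc47 at 1057 bp, with signals of 4104, 73.8 and 44.7. Just outside it were Evi2a at 991 bp, Nudt19 at 955 bp and Ccdc17 at 951 bp, with 45.0, 2736 and 40.7.

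Most coding exon peaks reached past the exon that held their summit. Of 167, 128 crossed an exon edge and 53 had the summit within 50 bp of a splice site, and the median exon length was 330 bp. Of the 70 peaks in 3' UTRs, 59 lay wholly within the exon, and the median distance past or before the stop codon was 598 bp. Cmya5, a large muscle protein, had 2 peaks in 1 coding exon of 9310 bp, 984 bp apart, with signals of 968 and 739 and replicate values of 124 and 132, and of 175 and 175; the gene was picked out after its values were seen. Sites with up to 1 mismatch in coding exon peaks began at codon position 1 in 15 cases, at position 2 in 11 and at position 3 in 27, the last being 50.9% (37.9 to 63.9). Over all 1225 such distal coding sites with a known frame, 58.2% began at position 3, which lies inside that interval.

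Some exonic peaks were close to starts of transcripts that the choice of members did not consider. A start of some other GENCODE transcript lay within 1000 bp of 45 of the 237 members, against 7.81% of intronic peaks (difference 11.2 points, 6.45 to 16.8). These were 23 processed transcripts, 12 retained introns, 3 each of antisense, lincRNA and nonsense-mediated decay transcripts and 1 miRNA, and 31 of the 45 belonged to the host gene. A start from the RefSeq table of the later build, found in the mm9 genome by 30 matching bases, lay within 1000 bp of 12 members (5.06%) against 4.69% of intronic and 81.4% of promoter peaks. The Aars 3' UTR peak, with a signal of 762, was 31 bp from the RefSeq start of Exosc6, a subunit of the RNA exosome. The 2 Cog8 summits were 385 and 139 bp from that of Pdf, a mitochondrial peptide deformylase. The Apold1 and S1pr3 summits were 58 and 83 bp from the starts of Gm36428 and Gm32834. Psmc2, a proteasome ATPase with a signal of 50.9, was 26 bp from a RefSeq start of its own. Without the 52 members near any such start, 185 remained, with a site of up to 1 mismatch at 34.1%, CpG-rich windows at 49.2% and a median signal of 94.3.

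Host genes of exonic peaks had a promoter peak of their own in 69 of 222 cases (31.1%, 25.4 to 37.4), close to the 33.3% of all 21275 protein-coding genes. Host genes of intronic peaks had one in 46.3% (difference −15.2 points, −21.6 to −8.24). With promoter peaks counted within 2000 bp, a window that reaches some of the exonic peaks themselves, the difference was −6.45 points and its interval included 0 (−13.5 to 0.720). With distal summits in genes not counted in that window it was −13.2 points (−19.8 to −6.11). By peak, the share was 25.7% for coding exon members and 42.9% for 3' UTR members (difference −17.1 points, −30.2 to −4.07). Srcin1, Dand5 and N4bp3 were the strongest members with a promoter peak in the same gene.

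Gene lists were formed from the beginnings of gene symbols, so each holds only genes so named and misses others of the same kind. Of 21275 protein-coding genes 222 hosted an exonic peak, so few were to be counted in any list. The respiratory chain and mitochondrial ribosome list (172 genes), the list of genes highly transcribed in B-cell lines (35 genes) and the collagen and laminin list (53 genes) held none. Of intronic peaks, 0.611%, 0.272% and 0.204% were in these lists. The solute carrier list had 5 of the 237 peaks (2.11%, the same share as of intronic peaks), led by the zinc transporter Slc30a2 at 1243 with 231 and 216 in the replicates. The homeobox and patterning list (270 genes) had 4 in 3 genes, 1.69% of members against 1.97% of intronic peaks. They were led by the signalling ligand Wnt10a at 772 with 189 and 179. The homeobox genes Rax at 54.9 and Dbx1 at 37.5 were members outside that list. The zinc finger list (425 genes) had 2 (0.844%, against 2.11% of intronic peaks), with the lymphocyte repressor Zbtb32 at 57.8 the stronger. Members with zinc fingers outside it included the erythroid regulator Klf1 at 347 and Prdm12 at 190. The protocadherin list (34 genes) had 1, the adhesion molecule Pcdh1 at 1537, or 0.422% against 0% of intronic peaks. The motor protein list (82 genes) had 1, or 0.422% against 1.22%, the kinesin Kif19a at 36.0 with no mm10 match. The list of symbols for G protein-coupled receptors (1176 genes) had 2, or 0.844%, against 1 intronic peak (0.0679%). The cadherin Celsr3 at 63.3 was the stronger, while S1pr3, the sphingosine-1-phosphate receptor with a signal of 2448, was a member outside the list. No interval was computed for the shares of any list. Genes named here from outside the lists were picked out after their values were seen.

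Chromosome 11 held 34 of the members (14.3%), against 12.1% of all mm9 peaks. The median signal of these 34 was 75.3, against 90.3 for members on the other chromosomes. None of the 34 had the exact consensus within 50 bp of the summit, against 13 of 203 elsewhere. No interval was computed for that difference, and 34 members are too few to show one. The Ccdc47 peak, among the 34, held an exact site 174 bp from its summit. The share on chromosome 11 was 14.7% for intronic peaks (difference −0.328 points, −4.66 to 4.99), so exonic peaks were not placed there more often than intronic ones beyond counting error.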

How the data were processed

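Peak lists were used as the authors deposited them. The signal value of each peak is the authors' own, in the deposited mm9 set made from both replicates and in the deposited mm10 lists (1 relaxed list of 300000 peaks per replicate, an optimal and a conservative set); caller, thresholds, scale and read depth were not stated with the files, and no interval based on depth was computed. Peaks on chromosomes 1 to 19 were classed by summit with GENCODE vM1 and NCBIM37 (mm9), coding exon before 3' UTR. The consensus was sought on both strands within 50 bp. No coordinate was converted: mm10 peaks were matched by place in the gene, with RefSeq GRCm38.p6 genes matched by symbol or synonym, within 100 bp. RefSeq starts on mm9 came from sequence matches. Shares have 95% Wilson intervals and differences 95% Newcombe intervals, for counting error only; no p-value was computed. Computation used Python 3.11.15, numpy 2.4.6 and scipy 1.17.1. The classing of summits, the consensus search, the match by place and the Wilson intervals were tested on simulated data. Other steps were not so tested. Members and lists were chosen with earlier results of these data known. Named genes were the 15 strongest members, the 6 strongest in 3' UTRs, up to 15 with the exact consensus, the median and the weakest, and the strongest of each list. Sites on chromosome 18 are not printed. One gene picked by the rule for named genes is not reported here.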

Additional observations from a re-analysis of the deposited data

How the results depend on the processing

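The number of members ran from 190 to 292 with other distances or sets of TSSs. Among mm9 peaks above the median signal there were 108 members, of which 9.26% had the exact consensus, and with up to 1 mismatch the share over all members was 32.9%. The CpG-rich share was 40.9% in 500 bp windows and 45.6% with GC above 0.55 and CpG observed/expected above 0.65. The share with an mm10 peak at the same place was 79.6% within 50 bp. The share found in both replicates was 86.8% with the whole relaxed lists, and 82.6% to 88.1% when 1 replicate was left out and the other alone was required. Host genes had a promoter peak in 46.4% of cases within 2000 bp, a window that reaches some members themselves, and in 34.2% when distal summits in genes were not counted. That last setting, and the removal of members near any GENCODE or RefSeq start, were added after seeing the data. No paired analysis was possible because there is 1 group. The other planned settings moved no value beyond its counting interval. Depth is unknown, so weak peaks cannot be told from noise by counts.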
